A study of Rattus norvegicus with 2 samples.

Results

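The S100 proteins are a family of small calcium-binding proteins, and 7 of their genes were followed here in rat heart: S100a1, S100a4, S100a6, S100a8, S100a9, S100a10 and S100b. They were chosen by name, as every probe set whose platform annotation gives one of these symbols alone. That rule found 10 probe sets, of the 7006 that carried a single symbol, and these covered 6 of the 7 genes. No probe set was annotated to S100a6, so S100a6 was not measured here.

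Most S100 proteins form dimers and hold calcium in a pair of EF-hand loops, a helix-loop-helix fold also found in calmodulin and troponin C. When calcium rises inside the cell the dimer opens and binds a target protein, and several members are also released from cells, where they act on receptors such as RAGE (encoded by Ager) and Toll-like receptor 4. S100a1 is the member typical of heart muscle, S100a4, S100a6 and S100a10 are found in fibroblasts and other mesenchymal cells, S100a8 and S100a9 are abundant in neutrophils and monocytes, and S100b is best known from glia. S100a10 stands apart because its loops have lost the ability to bind calcium.

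The hearts came from male Dahl salt-sensitive rats aged 17 weeks, a strain in which dietary salt raises blood pressure. The high-salt group was fed a high-salt diet and is labelled as having chronic heart failure; the low-salt group was fed a low-salt diet and carries no disease label. Each group is 1 array, and the labels say neither whether an RNA was from 1 rat or a pool, nor which part of the heart was taken, nor how long the diet lasted. There is thus no spread between replicates and no test, and each difference is one between these 2 arrays.

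Values are deposited intensities on a linear scale, in arbitrary units, and can be below 0. A noise floor of 126.4 was taken from the readings below 0, as the 95th percentile of their size. Readings under it have no reliable order, and a ratio with a single reading under it is a bound, written "at least". Of the 8740 probe sets that are not controls, 27.3% read below 0 on each array, and the trimmed mean of all was 99.2 on each. The sample was heart muscle by its markers: 8 of 9 cardiomyocyte markers reached the noise floor, such as cardiac troponin T, Tnnt2, at 5576.1 in high salt and 6017.5 in low salt. Because fewer cells of a type and less RNA per cell give the same reading in whole tissue, no difference below can be assigned to either. Intensities of different probe sets also depend on the probes, so the genes are not ranked by level.

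Of the 6 S100 genes with a probe set, S100a4 exceeded 2-fold upward with high salt, none exceeded it downward, S100a1 was lower by less than that, and 4 (S100a8, S100a9, S100a10 and S100b) did not reach the noise floor on either array. Over the 1216 genes that reached the floor on an array, 43 (3.54%) were at least 2-fold higher and 23 (1.89%) at least 2-fold lower. With 2 S100 genes above the floor, a share of the family cannot be set against those percentages. Among the 10 probe sets, 1 reached the floor on both arrays, 2 on a single array and 7 on neither. The median log2 ratio of S100a4 and S100a1, which differ in sign, was 0.58, against -0.045 over all 1216 genes.

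**Figure D1:**
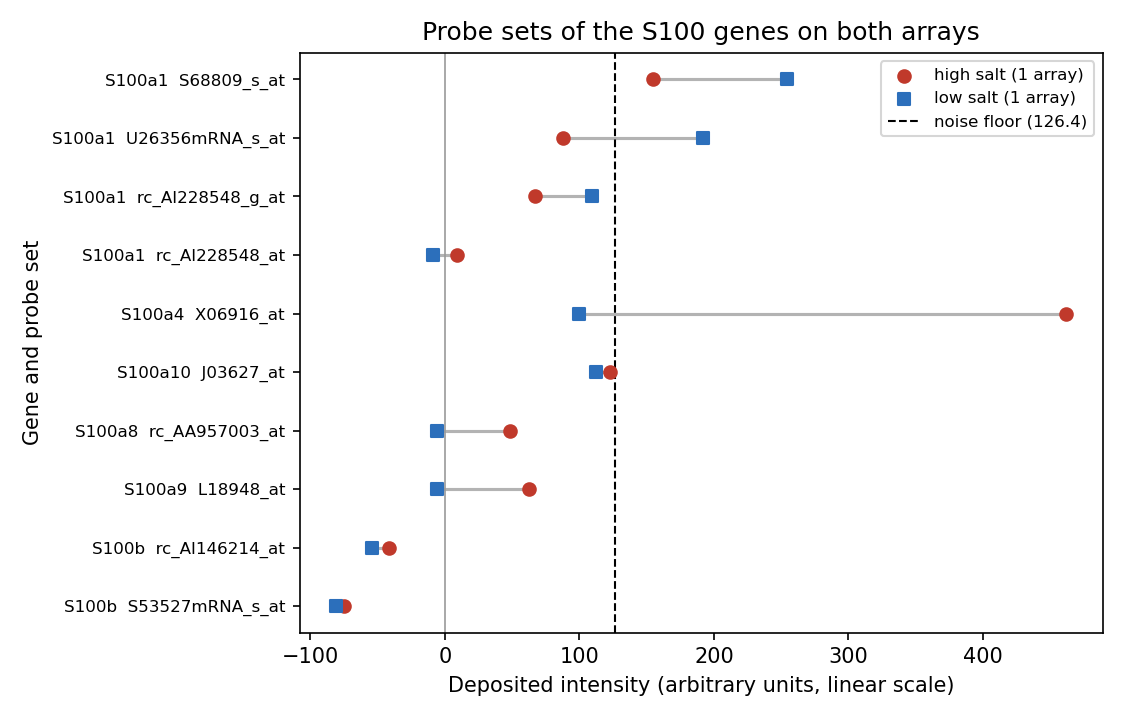
Deposited intensity (arbitrary units, linear axis) of the 10 S100 probe sets, with the high-salt array as circles and the low-salt array as squares; each point is 1 reading and the dashed line is the noise floor of 126.4. S100a4 reads 461.8 against 99.8, the brighter S100a1 probe sets lie lower in high salt, and 7 probe sets lie left of the floor on both arrays.

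S100a1 is the S100 protein of the heart muscle cell, where it binds the calcium pump and the calcium release channel of the sarcoplasmic reticulum and is known to support contraction. Its brightest probe set, S68809_s_at, read 154.6 with high salt and 254.4 with low salt. Both readings were above the noise floor, and the high-salt reading was 1.65-fold lower, a log2 ratio of -0.72. A second probe set, U26356mRNA_s_at, read 88.0 in high salt and 191.9 in low salt. Its high-salt reading was under the floor, so it was at least 1.52-fold lower. The remaining S100a1 probe sets were built on the same expressed sequence tag and stayed under the floor. One of them, rc_AI228548_g_at, read 67.2 in high salt and 109.0 in low salt. The other, rc_AI228548_at, read 8.8 and -8.6 and gives no direction.

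The S100a1 probe sets that reached the noise floor on an array were thus both lower in high salt, while the remaining pair stayed under the floor and has no reliable order. The probe sets that reached it are both of a type that can share sequence. Without probe sets of such types S100a1 had no ratio at the noise floor. Probe sets of the same gene differed with a pooled SD of 0.22 on the log2 scale over the 231 genes that had at least 2 of them above the floor on both arrays, a condition that 1 S100a1 probe set met. With the lower floor of 10.9, the 40th percentile of all readings, the SD was 0.64 over 917 genes. That figure also took in bounds, so it is not a like measure to the 0.22. At this floor S68809_s_at, U26356mRNA_s_at and rc_AI228548_g_at had log2 ratios of -0.72, -1.12 and -0.7, and rc_AI228548_at was under it on both arrays. S100a1 did not reach 2-fold, and 61 of the 1216 genes (5.02%) had a log2 ratio as low or lower. It would count as lower at a threshold of 1.5-fold, which 9.46% of all genes passed downward.

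The targets of S100a1 in heart muscle were read on the same arrays. Atp2a2, the calcium pump of the sarcoplasmic reticulum, read 4426.7 in high salt and 5065.0 in low salt in its brightest probe set, 1.14-fold lower. Its dimmer probe sets that reached the floor were lower too, rc_AA957510_s_at by 1.31-fold and rc_AA800212_at by at least 1.18-fold. Pln, which encodes the pump's inhibitor phospholamban, read 1624.3 and 1899.7, 1.17-fold lower. Ryr2, the calcium release channel, read 85.5 and 98.7, under the floor on both arrays. Ttn, the giant spring protein titin, read below 0 on both. Of the targets, Atp2a2 and Pln could be read, and neither reached 2-fold. Over the whole cardiomyocyte marker list, 8 of 9 genes reached the floor, 6 had a ratio below 1 and 2 above, none reached 2-fold, and the median log2 ratio was -0.11. The summed intensity of the 9 markers was 43640.9 in high salt and 44864.9 in low salt, a ratio of 0.97. These figures take the brightest probe set of each gene. Dimmer ones were up to 1.92-fold lower for Myh6 and 1.4-fold lower for Tnni3, while those of Myl2 were up to 1.08-fold higher. The part of heart muscle content in the S100a1 reading was not tested.

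**Figure D2:**
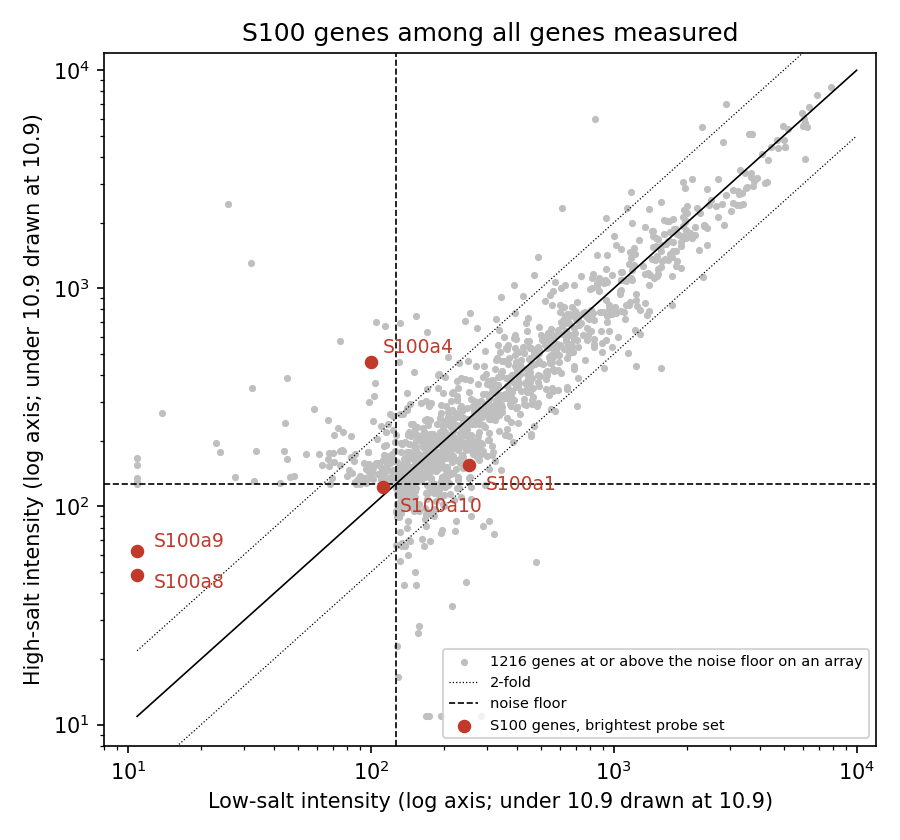
Intensity on the high-salt array against the low-salt array (both log axes, readings under 10.9 drawn at 10.9) for the 1216 genes that reached the noise floor on an array, in grey, and 5 S100 genes in their brightest probe set, in red; dashed lines are the noise floor and dotted lines 2-fold. S100a4 lies above the upper 2-fold line, S100a1 between the diagonal and the lower one, and S100a8, S100a9 and S100a10 in the corner where neither array reached the floor.

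Among the mesenchymal members, S100a4 had the large difference. S100a4, also called fibroblast-specific protein 1 although macrophages and other leukocytes make it too, binds non-muscle myosin and is linked to cell movement. Its single probe set, X06916_at, read 461.8 with high salt and 99.8 with low salt. The low-salt reading was at 78.9% of the noise floor, so S100a4 was at least 3.65-fold higher in high salt, a log2 ratio of at least 1.87. Taken as deposited, the readings differ 4.63-fold. S100a4 ranked 11 from the top among the 1216 genes, within the upper 0.905%. For 258 of these genes, S100a4 among them, the ratio ranked is a bound, so the rank depends on the floor. No second probe set was present to check it.

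S100a10, also called p11, pairs with annexin A2 at the cell membrane and there binds plasminogen and ion channels. Its probe set, J03627_at, read 122.9 in high salt and 112.4 in low salt. Both lay just under the noise floor, at 97.2% and 88.9% of it, so no ratio is given. The difference of 10.5 was reached or passed upward by 20.5% of the 6785 probe sets that were under the floor on both arrays, and by 23.2% downward. Anxa2, the partner, read 593.6 in high salt and 388.5 in low salt, 1.53-fold higher. Kcnk3, a potassium channel that S100a10 binds, read 68.4 and 45.0 in its brightest probe set, under the floor on both arrays. Its other probe set and Plg, plasminogen itself, read below 0 on both arrays. Plat, which encodes the activator that cleaves plasminogen, read 141.8 and 100.7, at least 1.12-fold higher.

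The fibroblast markers went both ways. All 10 fibroblast markers had a probe set and 8 reached the floor; none was past 2-fold, 4 had a ratio above 1 and 4 below, and the median log2 ratio was 0.16. Postn, the matrix protein periostin, read 167.3 in high salt and 5.0 in low salt, which bounds it only at 1.32-fold higher or more because the low-salt reading was far under the floor; with the floor of 10.9 it was the 1 marker past 2-fold. Vim, the intermediate filament vimentin, read 975.5 in high salt and 564.8 in low salt, 1.73-fold higher. Col1a2, a chain of type I collagen, read 292.8 and 193.8, 1.51-fold higher. Col1a1, the other chain, read 1169.7 and 823.3 in its brightest probe set, 1.42-fold higher. Lum, the proteoglycan lumican, went the other way with 115.9 and 172.1, at least 1.36-fold lower. Col3a1, Dcn and Pdgfra were 1.1-fold, 1.06-fold and 1.13-fold lower in their brightest probe sets. Dimmer ones were 1.35-fold lower for Col3a1 and up to 1.27-fold lower for Dcn. The summed intensity of the list was 4811.4 in high salt and 3987.3 in low salt, a ratio of 1.21. Most of that rise was in Vim and Col1a1. Thy1 and Ddr2 were under the floor in all their probe sets. The part of fibroblast or leukocyte content in the S100a4 reading was not tested. Myh9, the non-muscle myosin that S100a4 binds, and Cacybp, a partner of S100a6, had no probe set with a single gene and are not analysed here.

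The RefSeq table of regions around transcription starts held 4 of the 7 genes, S100a4, S100a6, S100a9 and S100b. Shown are those of S100a4, the member with the large difference, and of S100a9, the only myeloid member held. Each runs from 250 bases before to 50 after the start on build GRCr8. Capitals mark TATAAA, the core of the TATA box that positions the transcription start in some promoters. S100a4 is at chr2:178388279-178388578 on the + strand and S100a9 at chr2:178490573-178490872 on the - strand, and both are written 5′ to 3′ along the gene.
S100a4: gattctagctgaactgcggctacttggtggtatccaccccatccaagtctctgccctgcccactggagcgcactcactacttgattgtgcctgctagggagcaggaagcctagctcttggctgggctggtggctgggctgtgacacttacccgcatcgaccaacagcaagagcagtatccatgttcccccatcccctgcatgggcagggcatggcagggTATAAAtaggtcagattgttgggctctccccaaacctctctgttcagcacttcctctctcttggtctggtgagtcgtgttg
S100a9: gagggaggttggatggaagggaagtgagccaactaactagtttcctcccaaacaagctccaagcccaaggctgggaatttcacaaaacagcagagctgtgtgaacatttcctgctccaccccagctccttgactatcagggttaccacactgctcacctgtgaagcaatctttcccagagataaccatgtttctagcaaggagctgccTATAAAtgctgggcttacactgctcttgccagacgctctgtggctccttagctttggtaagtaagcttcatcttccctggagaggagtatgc

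TATAAA was found once in each, starting 31 bases before the S100a4 start and 42 bases before that of S100a9. It was not found in the S100a6 and S100b windows. Searched on both strands, 14.2% of the 33469 promoters in the table hold it. TGANTCA, the AP-1 motif, was in none of the 4 windows and in 7.33% of all. GGGCGG, an Sp1 motif, was found once in S100a6 and in 33.1% of all. CANNTG, the E-box, which reads the same on both strands, was found once each in S100a9 and S100b and in 72.1% of all. These motifs do not overlap each other in S100a4 and S100a9, and a match is only a match of letters.

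The genes also share a place in the genome. On the RefSeq assembly GRCr8, the 11 protein-coding genes from S100a1 to S100a9 on chromosome 2 are all S100 genes, and 4 of them (S100a1, S100a4, S100a8 and S100a9) had a probe set. S100a5 is the one gene between S100a4 and S100a6, S100a8 and S100a9 are neighbours, S100a10 lies 59 protein-coding genes beyond S100a9, and S100b is on chromosome 20. With 25 genes added on each side, the stretch held 61 genes, and 6 reached the noise floor. Besides S100a4 and S100a1 these were Tpm3 (239.4 in high salt and 146.1 in low salt), Jtb (254.7 and 242.3), Npr1 (168.8 and 168.9) and Sprr1a (536.3 and 558.9). Of the 6, S100a4 alone was past 2-fold.

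The myeloid pair S100a8 and S100a9 was not measurable. Their proteins join as calprotectin, which neutrophils and monocytes hold in large amounts and release in inflammation. S100a8, probe set rc_AA957003_at, read 48.4 with high salt and -6.1 with low salt. S100a9, probe set L18948_at, read 62.6 and -6.1. Both readings were higher on the high-salt array, but they reached only 38.3% and 49.5% of the noise floor there. Of the 6785 probe sets under the floor on both arrays, 2.0% showed a difference at least as far up as the 54.5 of S100a8, and 2.4% one as far down. For the 68.7 of S100a9 the shares were 1.31% and 1.41%. Differences of this size therefore occurred about as often downward as upward among dim probe sets.

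With a floor at the 40th percentile of all readings, 10.9, S100a8 would be at least 4.44-fold and S100a9 at least 5.74-fold higher. At that floor 7.3% of 3451 genes were at least 2-fold higher and 7.27% at least 2-fold lower. The bounds fall as the floor rises: at a floor of 40 the log2 bound of S100a9 was 0.65, and at 80 neither gene had a ratio.

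**Figure D3:**
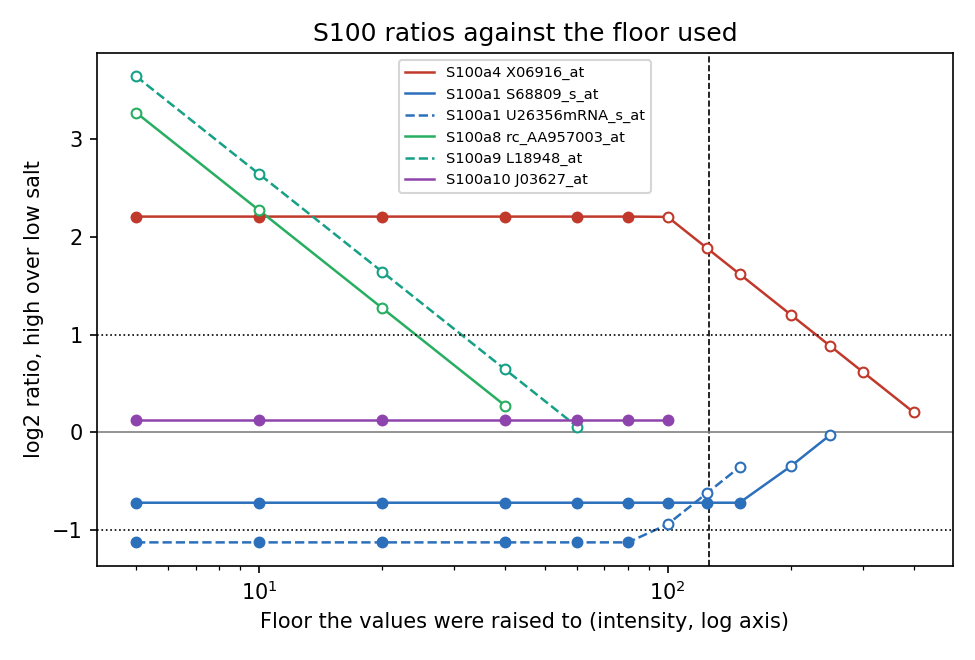
Log2 ratio of high over low salt (vertical) of 6 S100 probe sets against the floor to which readings were raised (horizontal, log axis); filled points have both readings at or above the floor, open points are bounds, lines end where neither reading reaches it, dotted lines mark 2-fold and the dashed line the noise floor of 126.4. The S100a8 and S100a9 bounds drop steeply and end before 80, while S100a4 stays at 2.21 until its low-salt reading is passed and is 1.87 at the noise floor.

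The receptors of this pair could not be read, and markers of the cells that make it went both ways. Ager, which encodes RAGE, read -18.7 in high salt and -16.6 in low salt, and Tlr4 read 2.9 and 3.6. Cd36, a fatty acid transporter that also binds the calprotectin complex, read 336.6 and 413.3, 1.23-fold lower. Of 10 myeloid markers, 5 had a probe set with a single gene and 3 reached the floor. Lyz2, the lysozyme made by myeloid cells, read 458.6 and 130.4, which is 3.52-fold higher. Cd14, a monocyte receptor for bacterial lipid, read 149.1 and 128.7. Cd74, a chaperone of class II antigen presentation, read 507.3 and 1144.4, which is 2.26-fold lower. Itgam, the integrin of neutrophils and macrophages, read 8.0 and 8.5, and Ptprc, common to all leukocytes, 43.3 and 30.8. The summed intensity of the 5 was 1166.3 in high salt and 1442.8 in low salt, a ratio of 0.81. That direction rested on Cd74: the other 4 summed to 659.0 and 298.4, a ratio of 2.21. Most of that rise was in turn Lyz2 alone, while Cd14 differed little and Itgam and Ptprc stayed under the floor. Of the 3 markers above the floor 2 had a ratio above 1 and 1 below, with a median log2 ratio of 0.21. Red cell markers were higher on the high-salt array. Hbb, a beta-globin gene, read 6982.3 and 2910.5, which is 2.40-fold higher, and Alas2, the haem synthesis enzyme of red cell precursors, read 698.0 and 104.5, at least 5.52-fold higher. Slc4a1, the anion exchanger, was at least 2.09-fold higher at 264.6 and 119.8, but its other probe set above the floor read 168.3 and 174.8. The summed intensity of the 3 was 7944.9 in high salt and 3134.8 in low salt. The part of blood or myeloid cells in the S100a8, S100a9 and S100a4 readings was not tested.

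S100b is a product of glia and Schwann cells that fat cells also make. Both of its probe sets read below 0 on both arrays: rc_AI146214_at at -41.9 in high salt and -54.4 in low salt, and S53527mRNA_s_at at -74.8 and -80.9. S100b was not detectable on these arrays. Of 6 glia and nerve markers 3 had a probe set and 1 reached the floor, Pmp22, a myelin protein also made by fibroblasts, at 269.3 in high salt and 221.1 in low salt. Ncam1, a neural adhesion molecule, read 115.7 and -70.5, both under the floor, and with the floor of 10.9 it was the 1 marker past 2-fold. The other Ncam1 probe set read -16.0 in high salt and -50.6 in low salt, below 0 on both arrays. Mbp, myelin basic protein, read below 0 on both arrays. Of 5 fat cell markers with a probe set, 3 (Lpl, Fabp4 and Lep) reached the floor and none of these was past 2-fold. Lep, the leptin gene, did so in D49653_s_at alone, at 531.1 in high salt and 453.6 in low salt. Its other probe sets stayed under the floor. Plin1, the coat protein of fat droplets, read below 0 on both arrays, and Cfd, another fat cell marker, read 2.2 and 6.8.

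Among other S100 genes, 1 of the 10 listed had a probe set. This was S100g, an intestinal and renal calcium buffer, which read 16.8 in high salt and 18.1 in low salt and, in its other probe set, 22.8 and 8.7. S100a7l2, named after its values were seen, read -0.9 and 3.4. All 3 of these probe sets stayed under the noise floor.

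The wider list of S100 partners and receptors had 1 gene past 2-fold. Of 21 genes, 16 had a probe set and 8 reached the floor, with 5 ratios above 1, 3 below and a median log2 ratio of 0.11. Anxa5, an annexin that binds phosphatidylserine, was 2.86-fold higher at 1395.2 in high salt and 488.4 in low salt, and its other bright probe set was 3.27-fold higher at 719.5 against 219.8. Anxa1, an anti-inflammatory annexin, read 143.2 and 98.1, at least 1.13-fold higher, and Anxa6, a large annexin of the sarcolemma, 389.0 and 372.4. Sugt1 and Anxa11 had no probe set with a single gene. Fgfr1 and the phosphatase gene Ppp5c stayed under the floor.

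Other EF-hand genes differed by less. Of 22, 17 had a probe set and 7 reached the floor; none was past 2-fold in either direction, and the median log2 ratio was 0.03. Calm2, which encodes calmodulin, read 452.3 in high salt and 367.6 in low salt, 1.23-fold higher. Capns1, the small subunit of the calpain proteases, read 1147.3 and 987.7 in its brightest probe set. Myl2, the ventricular regulatory light chain, read 7677.8 and 6884.4, and Capn1, a calpain, 238.3 and 259.8. The 2-fold rule was thus passed by 1 of the 2 S100 genes above the floor and by none of these 7. Over all 1216 genes, 3.54% passed it upward and 1.89% downward, so none of 7 is close to the common share. With 1 array a diet the families were not tested against each other.

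**Figure D4:**
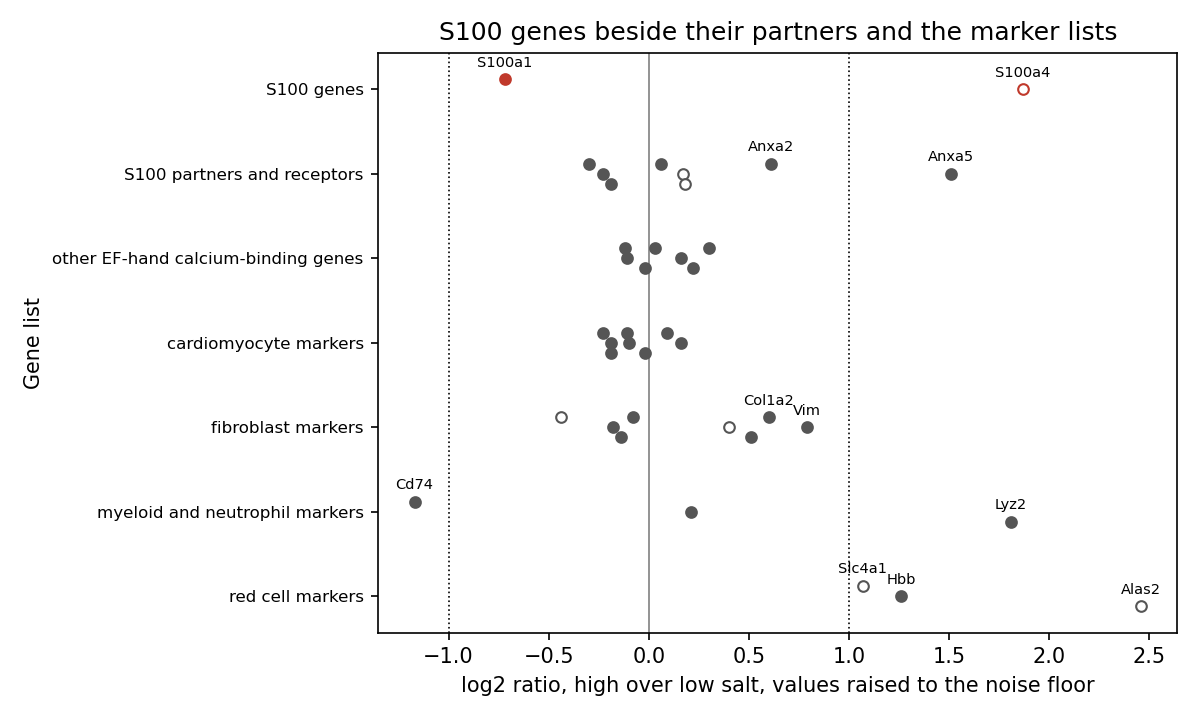
Log2 ratio of high over low salt, with readings raised to the noise floor, of the S100 genes measured (red) and of 6 gene lists (grey), 1 point a gene in its brightest probe set; filled points have both readings at or above the floor, open points are bounds, and dotted lines mark 2-fold. S100a4 at 1.87 lies past the line with Anxa5, Lyz2 and the red cell markers, while cardiomyocyte markers and the other EF-hand genes lie near 0.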

How the data were processed

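Biotin-labelled cRNA of total RNA was hybridised to 1-colour rat arrays, per the labels. The authors deposited 1 linear intensity per probe set and array; software and detection calls: not given in the sources used here. Trimmed means (2% from each end) differed by 0.072%, under the 10% limit, so intensities were used as deposited. Names came from the 2016 platform annotation; of 8740 probe sets without controls (59 were controls), 7006 had 1 symbol, 308 several and 1426 none, and only the first were used (4736 genes).

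Readings were raised to the noise floor before the log2 ratio; genes under it on both arrays were left out. A gene was represented by its brightest probe set, and the call was 2-fold. With 1 array per diet no test was run. Named genes were the 7 members with every probe set, their chief partners, and from each list those past 2-fold and up to 4 with the largest ratios; other list members and neighbouring genes were picked with their values in view. The members, lists and floor were chosen with earlier results of these data known. The steps were tested on simulated data. Effects were planted only in genes whose low-salt reading was at least 4 times the noise floor, above every S100 reading. The simulation thus says little about readings near the floor. Alternatives were other floors, median, quantile and loess (span 0.4) scaling, other probe set rules and 1.5-fold and 3-fold thresholds. Marker lists covered heart muscle, fibroblasts, myeloid, glial, fat, smooth muscle, endothelial and red blood cells. Tools were matplotlib 3.10.9, statsmodels 0.14.6, scipy 1.17.1, pandas 2.3.3 and numpy 2.4.6 under Python 3.11.15.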

Additional observations from a re-analysis of the deposited data

How the results depend on the processing

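S100a4 was higher and S100a1 (S68809_s_at) lower in high salt under all 6 alternatives, with log2 ratios from 0.87 to 2.21 and from -0.72 to -0.01. Each other floor moved S100a4, and only that of 252.9 moved S100a1. Scaling moved neither by as much as 0.22, the SD between probe sets of a gene. S100a4 was 2.21 with the floor at the 40th percentile (10.9) or at 63.2, and 0.87 with it at 252.9. S100a1 was -0.72 at the floors of 10.9 and 63.2, and -0.01 at 252.9. A higher floor shrinks any bound by construction. The count of genes at least 2-fold higher was 3 with the 40th percentile floor, which adds S100a8 and S100a9, 0 at 252.9, and 1 otherwise. At 1.5-fold, 1 gene (S100a1) was lower; otherwise 0 were. The median over the genes measured has no settled value: it was 2.15 with the 40th percentile floor, 0.13 at 63.2, 0.0 with medians set equal, which lifts S100a10 past the floor, 1.87 without probe sets that can share sequence, and -0.72 with both readings above the floor, since 1 to 5 genes enter. Leaving out an array is impossible with 1 per diet. No paired analysis was possible because each diet has 1 array and the result comes from no test. The number of arrays, and signal near background for 7 of the 10 probe sets, limit the precision.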

Other observations

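Markers of vessel cells, which also make S100 proteins, were mostly too dim to read. Of 4 smooth muscle markers, 1 reached the noise floor: Acta2, smooth muscle actin, at 378.5 in high salt and 314.6 in low salt, while Myh11, Tagln and Actg2 stayed under it. Of 4 endothelial markers with a probe set, Flt1, a receptor for vascular endothelial growth factor, alone reached it, at 121.3 and 127.9; Pecam1 read 117.5 and 107.4. The fat cell markers that reached the floor were within 2-fold in their brightest probe sets. Fabp4, a fatty acid carrier, read 613.4 in high salt and 785.0 in low salt, and Lpl, lipoprotein lipase, 2821.9 and 3098.2.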
